A study of Homo sapiens with 23 samples.

Results

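The genes described here encode the protein components of the cytosolic ribosome. They are the rows of the expression table whose NCBI Gene ID belongs to a protein-coding gene with an RPL or RPS symbol (a number and an optional A, X or L ending), together with RPSA, RPLP0, RPLP1 and RPLP2. Pseudogenes, the RPS6K kinases and the mitochondrial ribosomal proteins were left out. The rule took 79 of the 21658 genes in the table, of which 47 encode proteins of the large 60S subunit (RPL and RPLP) and 32 proteins of the small 40S subunit (RPS and RPSA). RPL3L and RPL10L have symbols that match the rule but no row among the 21658 genes, so they could not be analysed.

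RNA was measured by stranded mRNA sequencing in 23 libraries from 4 established ovarian cancer cell lines, Kuramochi, OVSAHO, OV-90 and EFO-21. Each line was taken as parental cells and as a prexasertib-resistant derivative, with 3 libraries per group except the OV-90 parental group, which had 2. Prexasertib is a small-molecule inhibitor of the checkpoint kinase CHK1, and resistance was obtained by stepwise increases of the drug over a long culture. Whether a resistant derivative was a single clone or a mixed population, and whether drug was present when RNA was taken, is not given in the sources used here. The sample labels name no other difference between the groups. Libraries are named by their group and their library number, from 2 to 24. In every line the parental libraries carry the lower numbers (2 to 12) and the resistant ones the higher (13 to 24). State and library order therefore cannot be told apart, and whether the numbers follow the order of processing is not given.

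A ribosome is built from ribosomal RNA and 1 copy of nearly every protein of this family, so the genes are transcribed at high rates. Most of their mRNAs start with a cytosine followed by an unbroken run of pyrimidines, the 5′ terminal oligopyrimidine (TOP) tract. The TOP tract places translation of these mRNAs under the kinase mTOR and the RNA-binding protein LARP1. Free RPL5 and RPL11, when ribosome assembly is disturbed, bind and inhibit MDM2, the ubiquitin ligase of p53.

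A start site was listed for 63 of the 79 genes in RefSeq (GRCh38.p14). Of these, 46 (73%) had a TOP-like tract, defined as a C at the listed start and a run of C and T letters of 5 bases or more on the gene's own strand, against 5.14% of 27305 genes in the same list. Where a gene had several listed starts, the one with the longest tract was taken, for every gene alike. The median tract was 8 bases and the longest 19. The letters CTTTC were sought on the same strand from 10 bases before to 20 bases after the start, and could overlap the tract. They stood there in 52.4% of the 63 members with a listed start and in 5.29% of the 27305 genes. The windows below run from 15 bases before to 15 bases from the listed start, with the tract in capitals, and are shown for the genes that moved most or most often between parental and resistant cells.
RPL34 (chr4:108620561-108620590, plus strand): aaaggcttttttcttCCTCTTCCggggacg
RPL21 (chr13:27251543-27251572, plus strand): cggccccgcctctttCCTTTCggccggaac
RPL41 (chr12:56116618-56116647, plus strand): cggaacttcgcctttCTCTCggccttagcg
RPS12 (chr6:132814554-132814583, plus strand): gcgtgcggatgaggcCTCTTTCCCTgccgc
RPS16 (chr19:39435935-39435964, minus strand): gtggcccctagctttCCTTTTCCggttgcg
RPS27A (chr2:55232673-55232702, plus strand): tgcgcggcgttcttcCTTTTCgatccgcca
RPS25 (chr11:119018329-119018358, minus strand): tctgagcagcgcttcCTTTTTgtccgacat
RPL10 (chrX:154398362-154398391, plus strand): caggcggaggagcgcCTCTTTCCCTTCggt
RPL36A (chrX:101390996-101391025, plus strand): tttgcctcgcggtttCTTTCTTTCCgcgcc
RPS26 (chr12:56041903-56041932, plus strand): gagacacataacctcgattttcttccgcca
RPS28 (chr19:8321481-8321510, plus strand): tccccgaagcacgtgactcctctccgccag
RPS4X (chrX:72277234-72277263, minus strand): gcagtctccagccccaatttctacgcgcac
In the last 3 windows no tract by this definition began at the listed base, which says nothing of starts that the list does not hold.

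The values are log2 expression values, 1 per gene and library, that had been quantile normalized over the libraries, so a difference of 1 is a 2-fold difference, and a change shared by nearly the whole transcriptome is removed by that step. With no read counts in the table, sequencing depth is unknown. In bulk RNA, a lower value in every cell and fewer cells that carry the mRNA cannot be told apart. Of 7 epithelial and ovarian markers, the keratins KRT8 (8.67 to 11.47) and KRT18 (8.92 to 12.45) were high in every library, EPCAM (2.48 to 12.45), KRT19 (3.13 to 13.44) and PAX8 (1.77 to 9.50) varied widely, and WT1 and MUC16 lay at or below the 10th percentile of the library in 8 of the 23 libraries each. Of the markers of other cell types, ALB lay there in 18 libraries, CD3E in 14, PECAM1 in 12, DES and GFAP in 7 each, VWF in 6, PTPRC in 4 and CD68 (median 6.93, highest 9.82) in 0. Their part in the results was not tested. The Kuramochi parental library 4 stood apart for the ribosomal protein genes: the median deviation of the 79 genes from their own mean over all libraries was -0.42 there, against 0.00 and 0.04 in parental libraries 5 and 6. In OV-90, parental library 2 stood at 0.50 and library 3 at 0.14. The median change of the members is also given without each of libraries 2, 3 and 4, and the count of called members without library 4. The values of single genes, subunits, neighbours and gene lists are given with these libraries included.

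The main question was whether the ribosomal protein genes differ between resistant and parental cells of each line. In OVSAHO, OV-90 and EFO-21, most of them were lower in the resistant cells. In Kuramochi 24.1% of the members were called lower, near the share of all genes, and 13.9% higher, below that share. Each gene was tested with limma on the whole table, and a gene was called at a Benjamini-Hochberg adjusted p under 0.05 over 21658 genes, with no minimum fold. In OVSAHO, 54 of 79 members fell and 1 rose, where 16.2% of all genes were called lower and 17.1% higher. The median log2 change of the members was -0.24, against 0.00 for all genes. In OV-90, 50 members fell and 0 rose (17.9% of all genes called lower, 18.1% higher), with a median of -0.54 against -0.06. In EFO-21, 53 fell and 3 rose (23.4% lower, 25% higher), with a median of -0.28 against 0.01. In Kuramochi, 19 fell and 11 rose (23.3% lower, 23.6% higher), with a median of -0.06 against -0.02. Counted in both directions, 30 members were called in Kuramochi (46.9% of all genes), 55 in OVSAHO (33.2%), 50 in OV-90 (36%) and 56 in EFO-21 (48.4%).

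The counts moved with the libraries and the fit. In OVSAHO, 36 members were called without resistant library 20 (21.7% of all genes) and 29 in the joint fit of all 23 libraries (26.2%). The OV-90 count rested on all 3 resistant libraries. With library 13, 14 or 15 left out, RPS28 was the 1 member still called, so the OV-90 call of every other member is lost in these fits, and the share of all genes called dropped from 36% to between 1.46% and 2.05%. The median of the members moved little in these fits, between -0.58 and -0.50. Without parental library 3 the median was -0.71, and without parental library 2 it was -0.39, each set against a lone parental library. In Kuramochi, leaving out parental library 4 gave 35 of 79 members lower and 11 higher and a median of -0.18. Of all 21658 genes, 5502 were lower and 5431 higher in that fit (50.5% in both directions). Leaving out parental library 6 turned the median to 0.04.

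Few single members changed by 2-fold or more. A fall of at least 2-fold was called for 1 member in Kuramochi (10.6% of all genes), 1 in OVSAHO (3.83%), 5 in OV-90 (6.56%) and 3 in EFO-21 (7.15%), and a rise of at least 2-fold for 0 members in any line (11.8%, 3.93%, 9.5% and 7.11% of all genes, in the same order). The fitted change was below 0 in 75 of 79 members in OVSAHO (49.8% of all genes) and 76 in OV-90 (53.3%). It was below 0 in 69 members in EFO-21 (48.9%) and 44 in Kuramochi (51.1%). Every resistant library lay below every parental library for 63 members in OVSAHO (23.7% of all genes), 73 in OV-90 (37.1%), 60 in EFO-21 (29.3%) and 19 in Kuramochi (30.5%). The 2-fold falls included RPL21 in Kuramochi, RPS28 in OVSAHO, RPS28, RPS26, RPS9 and RPS15 in OV-90, and RPS26, RPL34 and RPL41 in EFO-21. Every resistant library lay above every parental library for 17 members in Kuramochi (28.7% of all genes), 3 in OVSAHO (24.6%), 0 in OV-90 (32%) and 4 in EFO-21 (30.4%). The middle of the family was narrow in OVSAHO, with quartiles of -0.35 and -0.15, and wider in Kuramochi, with quartiles of -0.37 and 0.18. The quartiles of all genes were -0.26 and 0.29 in OVSAHO and -0.51 and 0.51 in Kuramochi. The exact permutation test of a single gene cannot go below a two-sided p of 0.1 with 3 against 3 libraries, or 0.2 with 2 against 3, and is not reported.

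**Figure D1:**
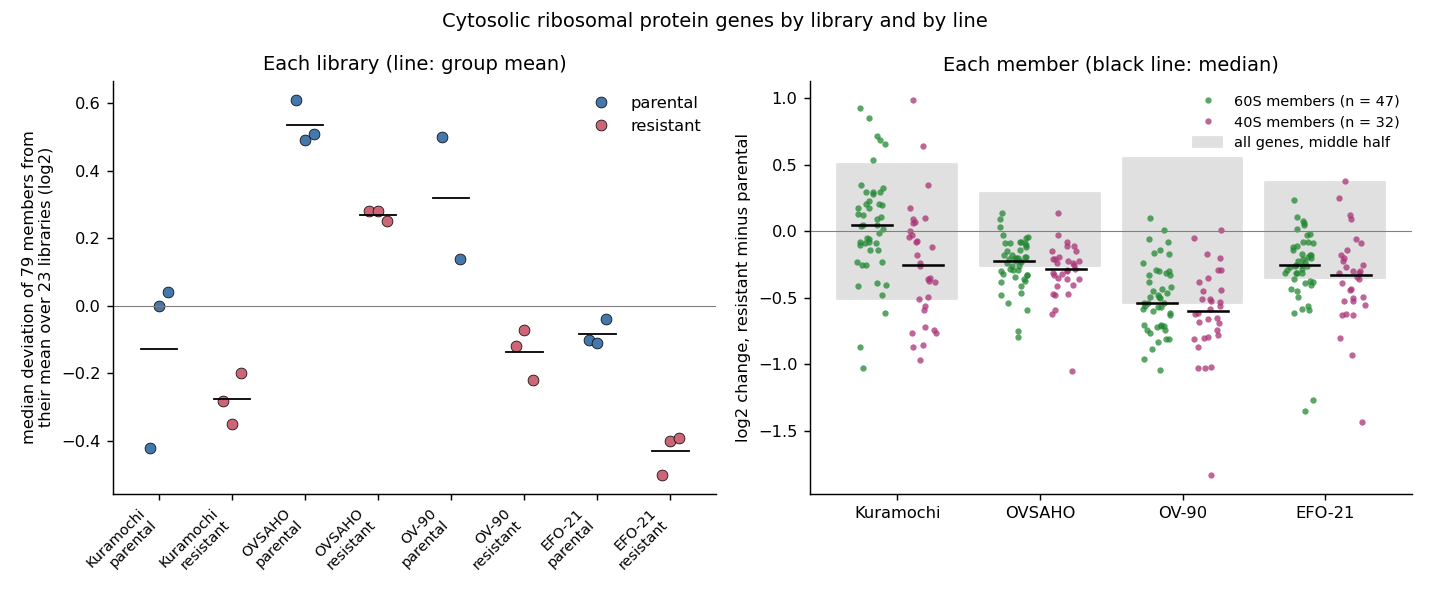
Left, the median deviation of the 79 genes from their own mean over 23 libraries (log2), 1 point per library, with group means as lines. Right, the log2 change of each member in each line for the 60S (47) and 40S (32) genes, with medians in black and the interquartile range of all genes in grey. Resistant libraries lie below parental ones in OVSAHO, OV-90 and EFO-21, while in Kuramochi parental library 4 (-0.42) lies below the 3 resistant libraries (-0.35 to -0.20).

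The genes of the 2 subunits had close medians in 3 lines. In OVSAHO the median change was -0.22 over the 60S genes and -0.29 over the 40S genes, in OV-90 -0.54 and -0.59, and in EFO-21 -0.25 and -0.33. In Kuramochi the 60S genes had a median of 0.05, with 8 higher (17%) and 7 lower (14.9%). The 40S genes had a median of -0.25, with 3 higher (9.38%) and 12 lower (37.5%). Of all genes, 23.6% were called higher and 23.3% lower there. The difference between the subunits was not tested.

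In the fit of all libraries with the line as a block, 52 members were lower in resistant cells and 0 higher, where 16.6% of all genes were lower and 16.4% higher. The median change on average over the lines was -0.28, against 0.01 over all genes. Across the separate fits, 35 members were called lower in at least 3 lines (5.25% of all genes), and 0 were called higher in at least 3 (5.63%). The 9 members called lower in all 4 lines (0.706% of all genes) included RPL21, RPL22, RPL34, RPS12, RPS16, RPS19, RPS27A and RPS29. The OV-90 calls of all 9 were lost without resistant library 13, 14 or 15, as were those among the 35 except that of RPS28. The fitted change was below 0 in all 4 lines for 39 members (11.2% of all genes). The members with no call of a fall in any line were RPL35, RPS15A and RPS27L, and these 3 were picked out after their values were seen.

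**Figure D2:**
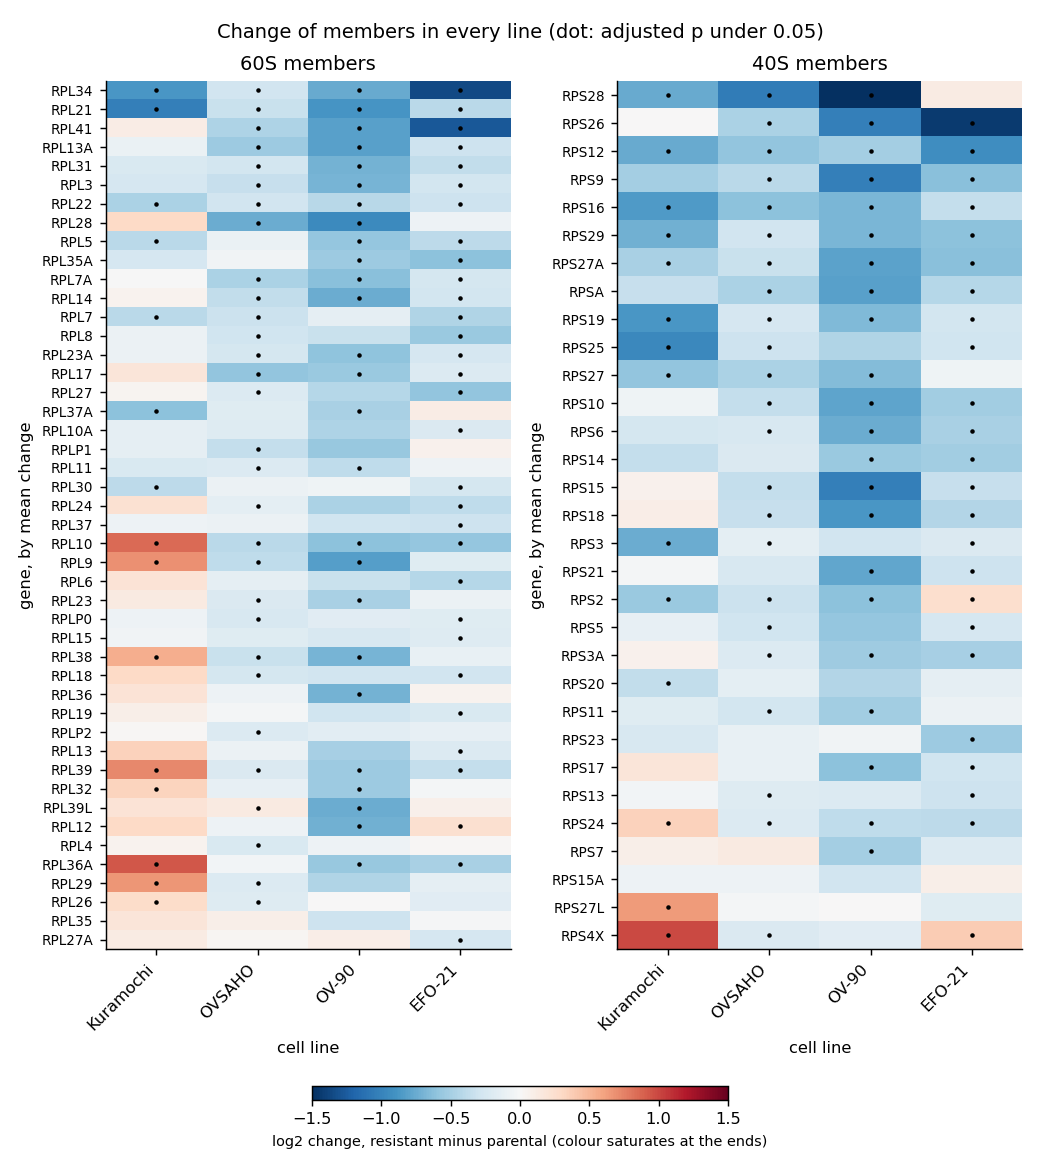
Log2 change (resistant minus parental, colour) of 77 of the 79 genes in the 4 lines, ordered within each subunit by the mean change, with a dot where the adjusted p was under 0.05. Falls run through OVSAHO, OV-90 and EFO-21, and the strongest rises stand in the Kuramochi column, led by RPS4X (0.99), RPL36A (0.93) and RPL10 (0.85).

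RPS12, a protein of the head of the 40S subunit, fell in every line. In OVSAHO its values were 11.31, 11.18 and 11.11 in parental and 10.59, 10.63 and 10.61 in resistant libraries. In EFO-21 they were 10.87, 10.86 and 10.93 against 9.93, 9.92 and 10.04. The groups did not overlap in any of the 4 lines, and resistant cells held between 52.6% (EFO-21) and 70.3% (OV-90) of the parental level. The log2 changes were -0.76 ± 0.12 (SE, adjusted p = 0.00272) in Kuramochi, -0.59 ± 0.05 (0.00103) in OVSAHO, -0.51 ± 0.11 (0.0296) in OV-90 and -0.93 ± 0.04 (4.5e-05) in EFO-21. Its average over the lines was -0.71 (adjusted p = 1.44e-07).

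RPL34, a 60S protein, had the largest fall of any 60S member when averaged over the lines. Kuramochi parental libraries stood at 9.53, 9.92 and 9.99 and resistant ones at 8.91, 8.84 and 9.06. In EFO-21 the parental values of 9.75, 9.81 and 9.87 stood against 8.34, 8.54 and 8.49, a log2 change of -1.35 ± 0.06 (SE, n = 3 and 3, adjusted p = 4.47e-05), or 39.1% of the parental level. In OVSAHO the fall was much smaller, to 81.7% (-0.29 ± 0.04, adjusted p = 0.00375). The groups did not overlap in any line, and the change differed between lines (F test, adjusted p = 3.09e-05).

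RPL21, another 60S protein, was lower by 1.03 in Kuramochi on the log2 scale, its largest change. Parental libraries held 7.44, 7.97 and 7.96 and resistant ones 6.53, 6.71 and 7.02, so that the groups stood apart although each spread over about 0.5. Its log2 change there was -1.03 ± 0.19 (SE, adjusted p = 0.00574), and it was -0.33 in OVSAHO, -0.88 in OV-90 and -0.40 in EFO-21. RPS16, whose tail reaches the decoding site, fell to 55.5% of the parental level in Kuramochi, 64.9% in OVSAHO, 62.4% in OV-90 and 77.9% in EFO-21. RPS19, a 40S protein mutated in Diamond-Blackfan anaemia, fell most in Kuramochi (-0.87 ± 0.12, adjusted p = 0.00193) and by 0.25 to 0.66 in the others. RPS29, a zinc-binding 40S protein, changed by -0.72, -0.29, -0.69 and -0.62 in Kuramochi, OVSAHO, OV-90 and EFO-21.

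RPS28, a small 40S protein, showed the largest fall of the family. OV-90 parental libraries held 7.71 and 7.74 and resistant ones 5.76, 6.09 and 5.84, a log2 change of -1.83 ± 0.14 (SE, n = 2 and 3, adjusted p = 0.00575), which left 28.2% of the parental level. In OVSAHO the values were 7.58, 7.35 and 6.94 against 6.29, 6.26 and 6.16 (-1.05 ± 0.16, adjusted p = 0.00555). In EFO-21 the groups overlapped, with 5.89, 6.34 and 6.21 against 6.19, 6.31 and 6.30. The change there was 0.12 ± 0.13 (adjusted p = 0.476), and the difference between the lines passed its own test (F test, adjusted p = 6.12e-06).

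RPS26, a 40S protein near the mRNA exit site, fell in 3 lines and not in Kuramochi. EFO-21 parental libraries held 9.09, 9.20 and 9.06 and resistant ones 7.44, 7.80 and 7.82, a change of -1.43 ± 0.11 (SE, adjusted p = 0.00024), or 37.1% of the parental level. In OV-90 it fell from 10.48 and 10.11 to 9.24, 9.33 and 9.23, and in OVSAHO from 10.52, 10.53 and 10.52 to 10.19, 9.99 and 9.95. In Kuramochi the values interleaved, with 8.86, 9.13 and 9.38 in parental and 9.01, 9.11 and 9.25 in resistant libraries, and the change was 0.00 ± 0.14 (adjusted p = 0.998). RPL41, the shortest protein of the ribosome, had the same order of lines. It changed by -1.27 ± 0.09 in EFO-21 (adjusted p = 0.00016), -0.81 ± 0.18 in OV-90 and -0.46 ± 0.08 in OVSAHO, and by 0.11 ± 0.18 in Kuramochi (adjusted p = 0.657).

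RPL28, a 60S protein encoded on chromosome 19, was among the leading falls in OVSAHO and OV-90. RPL28 changed by -0.75 ± 0.08 in OVSAHO (SE, adjusted p = 0.00186) and -0.96 ± 0.22 in OV-90 (0.0333), while it was 0.30 ± 0.13 in Kuramochi and not called there (0.108). In OV-90 the parental libraries of RPL28 lay 0.70 apart, at 11.82 and 11.12, against 10.44, 10.61 and 10.48 in resistant cells. RPS9, a 40S protein whose value rests on 75 exon features of the table, was 8.24 and 7.56 in OV-90 parental and 6.89, 7.02 and 6.72 in resistant libraries, a fall of 1.02 ± 0.23 that just passed (adjusted p = 0.0323).

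**Figure D3:**
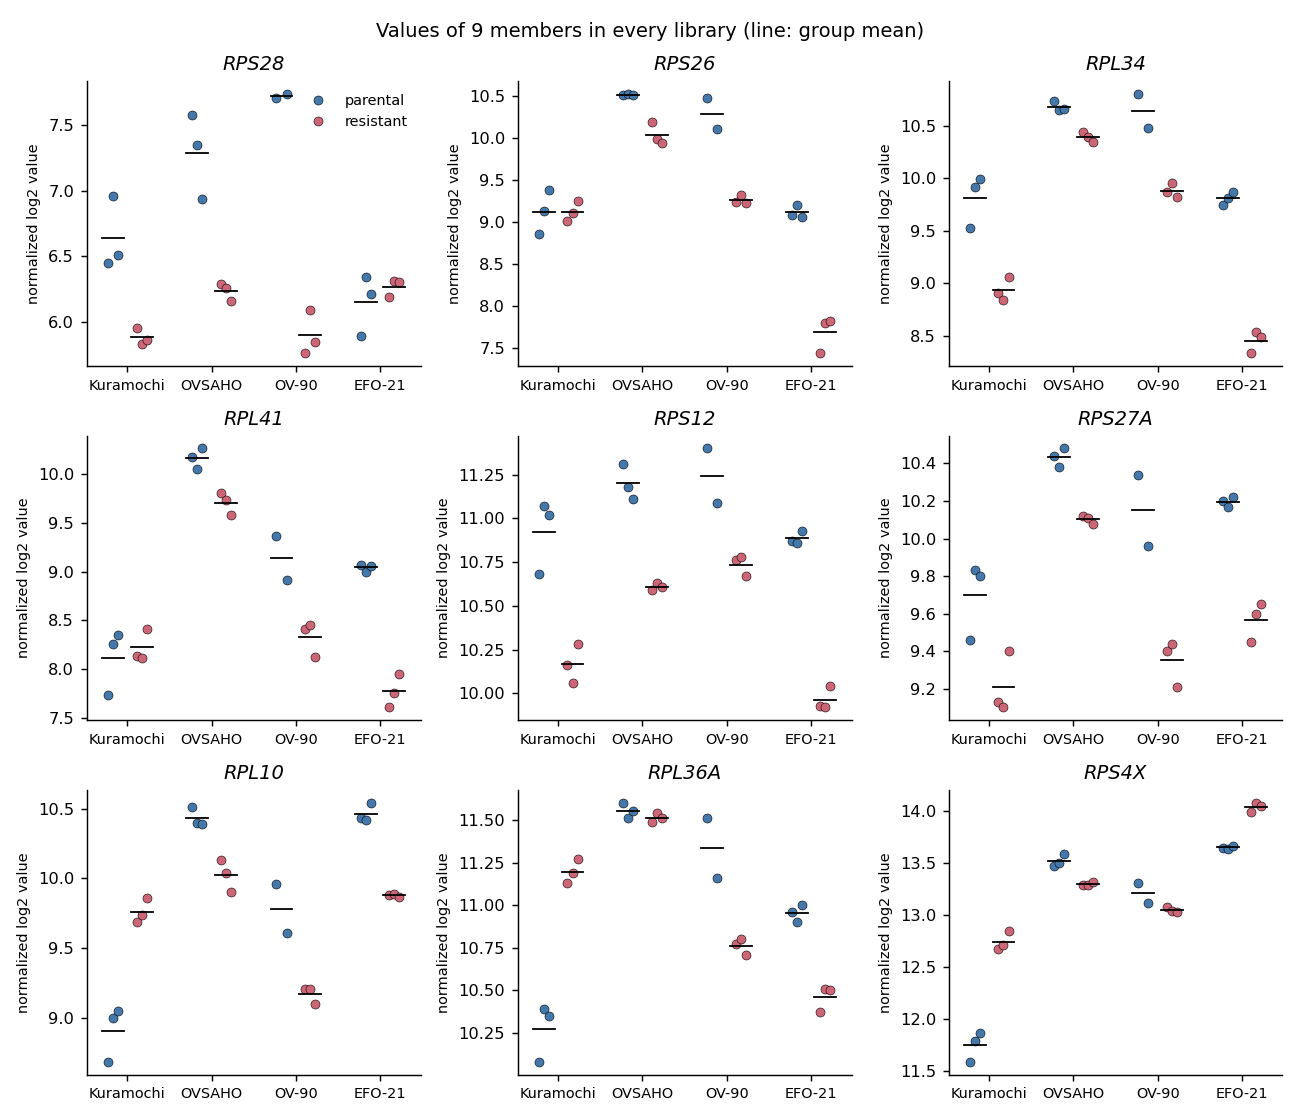
Normalized log2 values of 9 members in all 23 libraries by line (blue parental, red resistant), with group means as lines and a separate vertical scale per gene. RPS12 and RPS27A are lower in resistant cells of every line, RPS28 is lower in 3 lines and not in EFO-21, and RPL10 and RPL36A are higher in Kuramochi and lower in OV-90 and EFO-21.

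The 11 rises in Kuramochi included all 4 members on the X chromosome. RPS4X, the X-encoded form of the eS4 protein, stood at 11.59, 11.79 and 11.87 in parental and 12.68, 12.71 and 12.85 in resistant libraries (0.99 ± 0.09, SE, adjusted p = 0.000322). RPL36A, bound near the tRNA exit site of the 60S subunit, rose from 10.08, 10.39 and 10.35 to 11.13, 11.19 and 11.27 (0.93 ± 0.09, adjusted p = 0.000508). RPL10, which joins the 60S subunit late in its maturation, rose from between 8.69 and 9.05 in the 3 parental libraries to 9.69, 9.74 and 9.86 (0.85 ± 0.11, adjusted p = 0.0012). RPL39, which lines the peptide exit tunnel, rose by 0.72 ± 0.15 (adjusted p = 0.00913). The other 7 were RPL9, RPL26, RPL29, RPL32, RPL38, RPS24 and RPS27L, with changes from 0.28 (RPL26) to 0.69 (RPL9).

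In the other lines these 4 genes went down or were not called, with the exception of RPS4X in EFO-21. RPL10 changed by -0.41 in OVSAHO, -0.61 in OV-90 and -0.58 in EFO-21, and RPL39 by -0.22, -0.54 and -0.36, each called, though the RPL39 call in OVSAHO was lost in 7 of 11 alternative fits and that in EFO-21 in 2. RPL36A fell in OV-90 (-0.57) and EFO-21 (-0.49), and its libraries overlapped in OVSAHO (-0.04 ± 0.04, adjusted p = 0.455). RPS4X rose in EFO-21, from 13.65, 13.64 and 13.67 to 13.99, 14.08 and 14.05 (0.38 ± 0.04, adjusted p = 0.000904), and fell in OVSAHO (-0.22 ± 0.05, adjusted p = 0.0178). The change differed between lines for each of the 4, with adjusted p values from 6.93e-09 (RPS4X) to 1.08e-05 (RPL39) in the F test. Over the whole family the change differed between lines for 56 members, where 75.1% of all genes passed the same test. Of 28 members called lower in OVSAHO, OV-90 and EFO-21 together (2.09% of all genes), 9 were also lower in Kuramochi and 3 were higher there, namely RPL10, RPL39 and RPS24. The OV-90 calls of these 28 were lost without resistant library 13, 14 or 15.

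The other rises were small. In EFO-21, RPS2, a 40S protein, rose by 0.25 ± 0.07 (adjusted p = 0.0249) and RPL12, a protein of the base of the 60S stalk, by 0.24 ± 0.07 (0.0299). In OVSAHO the 1 member that rose was RPL39L, a paralogue of RPL39 known for its expression in testis (0.14 ± 0.04, adjusted p = 0.0321). None of these 3 calls held in the single fit of all libraries or without the mean-variance trend.

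In EFO-21 and Kuramochi, several of the largest changes stood beside changes of neighbouring genes in the same direction, and their part in the results was not tested. For each member the 20 nearest other genes were taken from the GRCh37 annotation, 10 on each side where present (16 genes for RPL8, 12 for RPL35A). They were drawn from genes with a robust linear model value, leaving out the members and ribosomal protein pseudogenes. RPL41 (chr12:56510374-56511751) and RPS26 (chr12:56435135-56438481) lie close together on chromosome 12 and share most of these neighbours. In EFO-21, 17 of the 20 genes around RPL41 and 16 of those around RPS26 were called lower, with median log2 changes of -1.01 and -0.92. Around RPL34 (chr4:109541725-109551568), 13 of 20 were lower in EFO-21 (median -0.84) and 16 of 20 in Kuramochi (median -0.80). RPS2, which rose in EFO-21, had 14 of 20 neighbours higher there. In OVSAHO and OV-90, where RPL41, RPS26 and RPL34 also fell, the medians of their neighbours lay between -0.15 and 0.06.

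The 4 X-chromosome members of Kuramochi stood among other genes that were higher. Among the 578 other genes of the X chromosome with a robust linear model value, the median change was 0.56 and 50.9% were called higher, against medians of 0.04, -0.01 and -0.08 in OVSAHO, OV-90 and EFO-21. The neighbours of RPL10, RPL39 and RPL36A had medians of 1.01, 0.97 and 0.84, and those of RPS4X 0.47. RPL21 (chr13:27825499-27830828) is the 1 member on chromosome 13, where the 264 other genes had a median of -0.88 in Kuramochi and 66.3% were lower. RPS25, a 40S protein used by some viral entry sites and the second largest fall in Kuramochi (-0.97 ± 0.15, adjusted p = 0.00286), had 11 of 20 neighbours lower (median -0.63). The part of these chromosomes in the members' changes was not tested.

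Other members had changes that differed from those of their neighbours. RPS28 fell by 1.83 in OV-90 and 1.05 in OVSAHO beside neighbour medians of -0.52 and -0.20, and in Kuramochi it changed by -0.76 beside 0.33. RPL21 changed by -0.88 in OV-90 beside 0.64. RPS12 changed by -0.76 in Kuramochi beside 0.13. Across the 79 members, the change and the neighbours' median had a Pearson r of 0.67 in Kuramochi, 0.47 in OVSAHO, 0.32 in OV-90 and 0.77 in EFO-21 (Spearman 0.55, 0.42, 0.32 and 0.55). These are descriptions across genes, which share libraries and, where they lie close, neighbours. Taken relative to its neighbours, the median member stood at -0.12 in Kuramochi, -0.29 in OVSAHO, -0.53 in OV-90 and -0.30 in EFO-21. In that order, 56, 75, 74 and 71 of the 79 lay below their neighbours, a count not made for all genes.

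**Figure D4:**
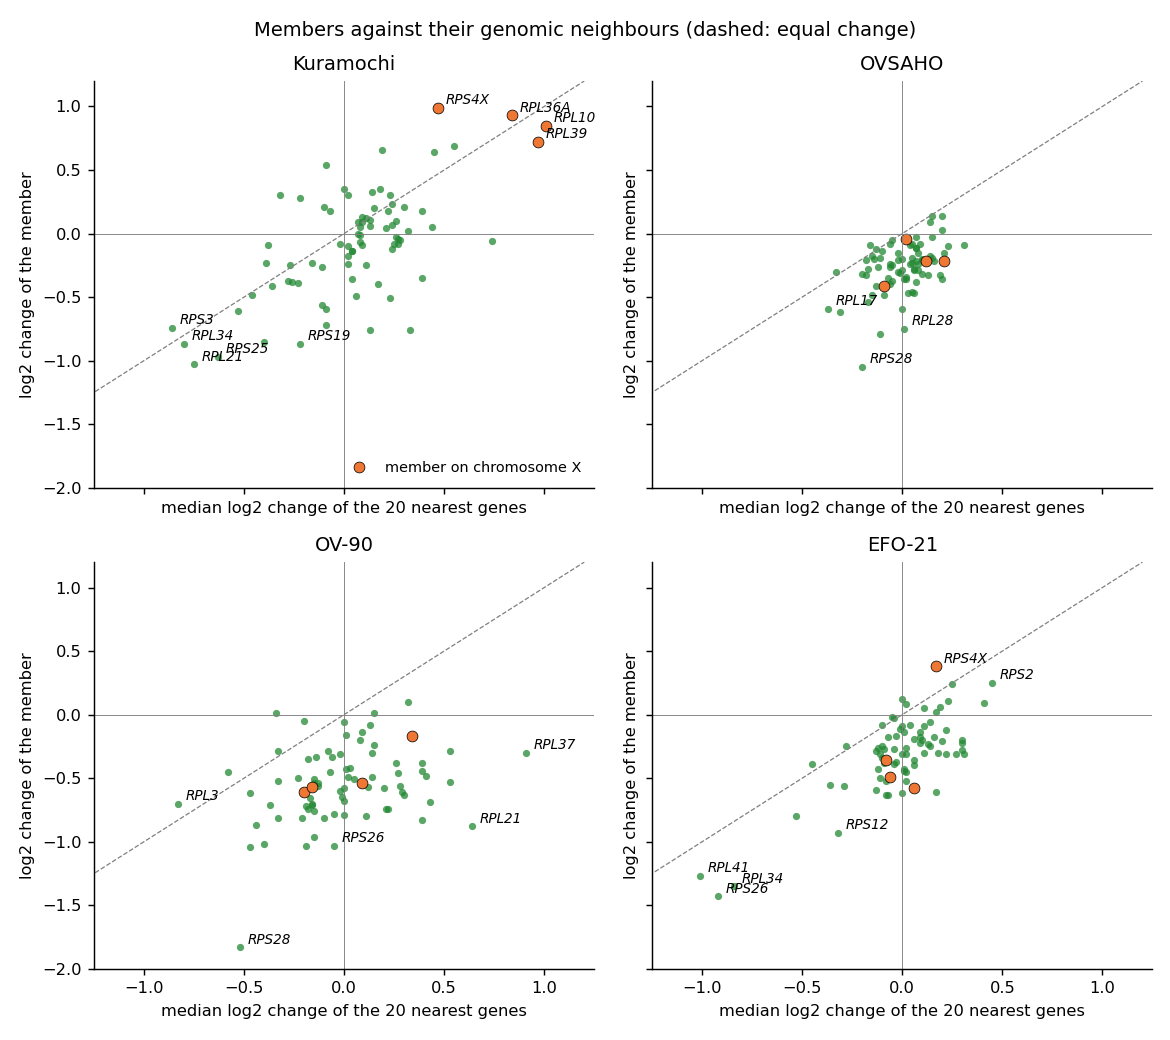
Log2 change of each of the 79 genes (vertical) against the median log2 change of its nearest other genes, up to 20 (horizontal). There is 1 panel per line, with equal change dashed and the 4 X-chromosome members in orange. In Kuramochi the X members sit at the upper right and RPL21 (-1.03) at the lower left, in EFO-21 RPL41, RPS26 and RPL34 sit at the lower left, and in OVSAHO and OV-90 most members lie below the dashed line.

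Members with known roles outside the general pattern were followed by name. The acidic P stalk, which recruits elongation factors to the 60S subunit, consists of RPLP0, RPLP1 and RPLP2. In OVSAHO RPLP0 (-0.24) and RPLP1 (-0.36) fell, and RPLP2 (-0.20, adjusted p = 0.0402) passed and was lost in 7 of 11 alternative fits. In EFO-21 RPLP0 fell (-0.18 ± 0.04, adjusted p = 0.00783), and RPLP1 (0.06) and RPLP2 (-0.12) were not called. In OV-90 and Kuramochi none of the 3 passed, with changes from -0.57 ± 0.18 (RPLP1 in OV-90, adjusted p = 0.0616) to 0.02 ± 0.15 (RPLP2 in Kuramochi, 0.932).

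RPL5 and RPL11, which with 5S ribosomal RNA form the particle that binds MDM2, were lower in part of the lines. RPL5 fell in Kuramochi (-0.41 ± 0.09, adjusted p = 0.0125), OV-90 (-0.58 ± 0.10, 0.0202) and EFO-21 (-0.39 ± 0.04, 0.000703), and its change in OVSAHO was -0.10 ± 0.03 (0.0664). In EFO-21 its parental values of 11.57, 11.58 and 11.55 lay above the resistant values of 11.10, 11.20 and 11.23. RPL11 fell in OVSAHO (-0.20 ± 0.04, 0.0101) and just passed in OV-90 (-0.38 ± 0.10, 0.0465). RPS6, the substrate of the S6 kinases downstream of mTOR, fell in OVSAHO (-0.24 ± 0.04, 0.0101), OV-90 (-0.74 ± 0.13, 0.0210) and EFO-21 (-0.49 ± 0.07, 0.00183). RPSA, which is also a laminin receptor, fell in the same 3 lines, to 72.4%, 57.2% and 74.2% of the parental level, with -0.35 ± 0.14 in Kuramochi (0.0789).

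Some ribosomal proteins are made as fusions with ubiquitin or a ubiquitin-like protein. RPS27A carries ubiquitin and fell in all 4 lines. Its values were 9.46, 9.83 and 9.80 against 9.13, 9.10 and 9.40 in Kuramochi, 10.44, 10.38 and 10.48 against 10.12, 10.11 and 10.08 in OVSAHO, 10.34 and 9.96 against 9.40, 9.44 and 9.21 in OV-90, and 10.20, 10.17 and 10.22 against 9.45, 9.60 and 9.65 in EFO-21. Resistant libraries were lower throughout, by 0.33 (OVSAHO) to 0.80 (OV-90). FAU, the fusion of eS30 with a ubiquitin-like protein, has no RPS symbol and is not counted among the members. It fell in Kuramochi (-0.37 ± 0.11, adjusted p = 0.0378), and its changes of -0.15, -0.41 and -0.10 in OVSAHO, OV-90 and EFO-21 were not called. The Kuramochi call of FAU was lost in 7 of 11 alternative fits, and that of RPS27A in 4.

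Several members have a closely related second gene whose product can take the same place in the ribosome. RPS27L, the paralogue of RPS27 and a target of p53, rose in Kuramochi from 9.35, 9.63 and 9.46 to 10.12, 9.99 and 10.26 (0.64 ± 0.10, adjusted p = 0.00282), where RPS27 fell (-0.59 ± 0.11, adjusted p = 0.00611). In OVSAHO and OV-90 RPS27 fell (-0.47 and -0.65) and RPS27L was not called (-0.03 and 0.01). RPL22 and RPL22L1, which are known to regulate each other's mRNA, both fell in all 4 lines. RPL22 changed by -0.48, -0.29, -0.42 and -0.31 in Kuramochi, OVSAHO, OV-90 and EFO-21, and RPL22L1 by -0.71, -0.28, -1.23 and -0.64. The call of RPL22L1 was lost in 4 of 11 alternative fits in Kuramochi, 3 of 11 in OVSAHO and 3 of 10 in OV-90.

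For the other pairs the calls varied by line. RPL39 rose in Kuramochi and fell in the other 3 lines, and RPL39L rose in OVSAHO (0.14) and fell in OV-90 (-0.74 ± 0.13, adjusted p = 0.0229). RPL36A and RPL36AL both fell in OV-90 (-0.57 and -0.49), and in EFO-21 RPL36A fell (-0.49) while RPL36AL was not called (0.05 ± 0.06, adjusted p = 0.559). RPL7 fell in Kuramochi (-0.40), OVSAHO (-0.32) and EFO-21 (-0.45), and RPL7L1, an assembly factor, rose in OV-90 (0.66 ± 0.10, adjusted p = 0.0176) and fell in EFO-21 (-0.37 ± 0.09, 0.0181). RPL26 rose in Kuramochi (0.28) and fell in OVSAHO (-0.19), and RPL26L1 fell in OVSAHO (-0.23), OV-90 (-0.66) and EFO-21 (-0.14). Of 11 alternative fits, 5 lost the RPL26 call in Kuramochi, 6 the RPL26L1 call in OVSAHO, 7 that in EFO-21 and 4 the RPL7L1 call in EFO-21. The OV-90 calls of RPL36AL, RPL7L1 and RPL26L1 were each lost in 3 of 10 alternative fits. RPL3 fell in OVSAHO (-0.34), OV-90 (-0.70) and EFO-21 (-0.28). With 6 related genes added, among them FAU, RPL22L1, RPL26L1, RPL36AL and RPL7L1, the counts were 21 lower and 11 higher in Kuramochi, 58 and 1 in OVSAHO, 54 and 1 in OV-90 and 57 and 3 in EFO-21.

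The lines also differed before resistance. Parental levels differed among the 4 lines for 78 of 79 members (F test), as they did for 95.6% of all genes. For a given member, the parental group means of the highest and the lowest line lay between 0.24 (RPL26) and 2.51 (RPS27L) apart on the log2 scale, with a median of 1.27. EFO-21 was the lowest line for 36 members and Kuramochi for 34, and OVSAHO was the highest for 41 and OV-90 for 27. RPS4X, for example, had parental means of 11.75 in Kuramochi, 13.22 in OV-90, 13.52 in OVSAHO and 13.66 in EFO-21, so its rise in Kuramochi resistant cells, to 12.74, left it below the parental level of the other 3 lines. RPS26 had parental means of 9.11 in EFO-21, 9.12 in Kuramochi, 10.30 in OV-90 and 10.52 in OVSAHO, where the lowest pair and the highest pair differed by less than the largest SD of these groups (0.26).

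Other genes of ribosome production and translation are given beside the members, by their counts and medians. The calls of single genes in these lists were not recomputed with libraries left out. The share of all genes called lower was 23.3% in Kuramochi, 16.2% in OVSAHO, 17.9% in OV-90 and 23.4% in EFO-21. The share called higher was 23.6%, 17.1%, 18.1% and 25%, in the same order. The 77 mitochondrial ribosomal protein genes, whose products form a separate ribosome, had medians of -0.11 in Kuramochi, -0.15 in OVSAHO, -0.51 in OV-90 and -0.22 in EFO-21. Of these genes, 25, 30, 47 and 41 were lower (32.5%, 39%, 61% and 53.2%). Another 9, 5, 3 and 9 were higher (11.7%, 6.49%, 3.9% and 11.7%). Of 15 TOP genes that encode no ribosomal protein, 5 were lower and 2 higher in Kuramochi, 5 and 1 in OVSAHO, 3 and 2 in OV-90 and 11 and 1 in EFO-21. Their medians were -0.16, -0.15, 0.01 and -0.37. The shares were 33.3%, 33.3%, 20% and 73.3% lower and 13.3%, 6.67%, 13.3% and 6.67% higher. EIF3E and EIF3H, subunits of initiation factor eIF3, fell in EFO-21 (-0.98 and -0.86), as did the splicing factor HNRNPA1 (-0.80), and EEF2, the translocation factor, rose in Kuramochi (0.74). The 6 noncoding host genes of small nucleolar RNAs, whose transcripts also carry TOP tracts, had medians of -0.55, -0.37, -0.81 and -0.43, with 4, 4, 5 and 4 lower and 0 higher in Kuramochi, OVSAHO, OV-90 and EFO-21. SNHG5 (-0.61, -0.60, -1.08 and -1.44) and SNHG8 (-0.64, -0.28, -0.84 and -1.46) fell in all 4.

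The genes that assemble ribosomes had medians near 0. Of 40 assembly factors, 15 were lower and 5 higher in Kuramochi, 4 and 7 in OVSAHO, 10 and 5 in OV-90 and 16 and 7 in EFO-21. The medians lay between -0.13 and 0.02. The shares lower were 37.5%, 10%, 25% and 40%, against 23.3%, 16.2%, 17.9% and 23.4% of all genes. The shares higher were 12.5%, 17.5%, 12.5% and 17.5%, against 23.6%, 17.1%, 18.1% and 25%. DDX21, a nucleolar helicase, rose in OV-90 by 1.80 ± 0.34 (adjusted p = 0.0244), GRWD1 fell in Kuramochi (-1.30), and GAR1, of the pseudouridylation complex, fell in EFO-21 (-1.29). Of 12 genes of RNA polymerase I, which makes ribosomal RNA, 5 were lower and 1 higher in Kuramochi, 1 and 5 in OVSAHO, 2 and 0 in OV-90 and 1 and 4 in EFO-21. The shares were 41.7%, 8.33%, 16.7% and 8.33% lower and 8.33%, 41.7%, 0% and 33.3% higher. The medians were -0.22, 0.15, 0.03 and 0.12. POLR1D and POLR1B each fell in Kuramochi (-1.06). Among 33 initiation and elongation factors the medians lay between -0.13 and 0.00. Of these, 9, 6, 8 and 16 were lower (27.3%, 18.2%, 24.2% and 48.5%). Another 7, 7, 9 and 4 were higher (21.2%, 21.2%, 27.3% and 12.1%). EEF1A2, the second form of elongation factor eEF1A, rose in Kuramochi by 4.27 ± 0.11, from 7.56 to 11.82, and in OVSAHO by 0.82. EIF4G2 rose in OV-90 by 1.84, and EIF4E, the cap-binding protein, fell in EFO-21 (-1.53) and Kuramochi (-1.24).

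The regulators of TOP mRNAs and ribosome production, 16 genes, had medians of -0.18 in Kuramochi, 0.16 in OVSAHO, 0.37 in OV-90 and 0.10 in EFO-21. Of these, 3, 3, 2 and 2 were lower (18.8%, 18.8%, 12.5% and 12.5%), against 23.3%, 16.2%, 17.9% and 23.4% of all genes. Another 4, 6, 5 and 6 were higher (25%, 37.5%, 31.2% and 37.5%), against 23.6%, 17.1%, 18.1% and 25%. LARP1 rose in OV-90 by 1.73 ± 0.35 (adjusted p = 0.0265) and in OVSAHO by 0.37 ± 0.09 (0.0217). MDM2 rose in OV-90 by 2.07 ± 0.35 (0.0211) and fell in EFO-21 (-0.94 ± 0.12, 0.00147). MYCN fell in Kuramochi (-2.26) and rose in OVSAHO (1.90) and EFO-21 (2.08). MYC, a transcription factor that drives ribosome production, was picked out after its values were seen. It rose in all 4 lines, by 0.39 ± 0.05 in Kuramochi, 0.30 ± 0.06 in OVSAHO, 0.80 ± 0.13 in OV-90 and 0.55 ± 0.05 in EFO-21, with adjusted p values of 0.00142, 0.0101, 0.0192 and 0.000385. The 500 genes with the highest mean that are no members had medians between -0.04 and 0.04 in the 4 lines.

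**Figure D5:**
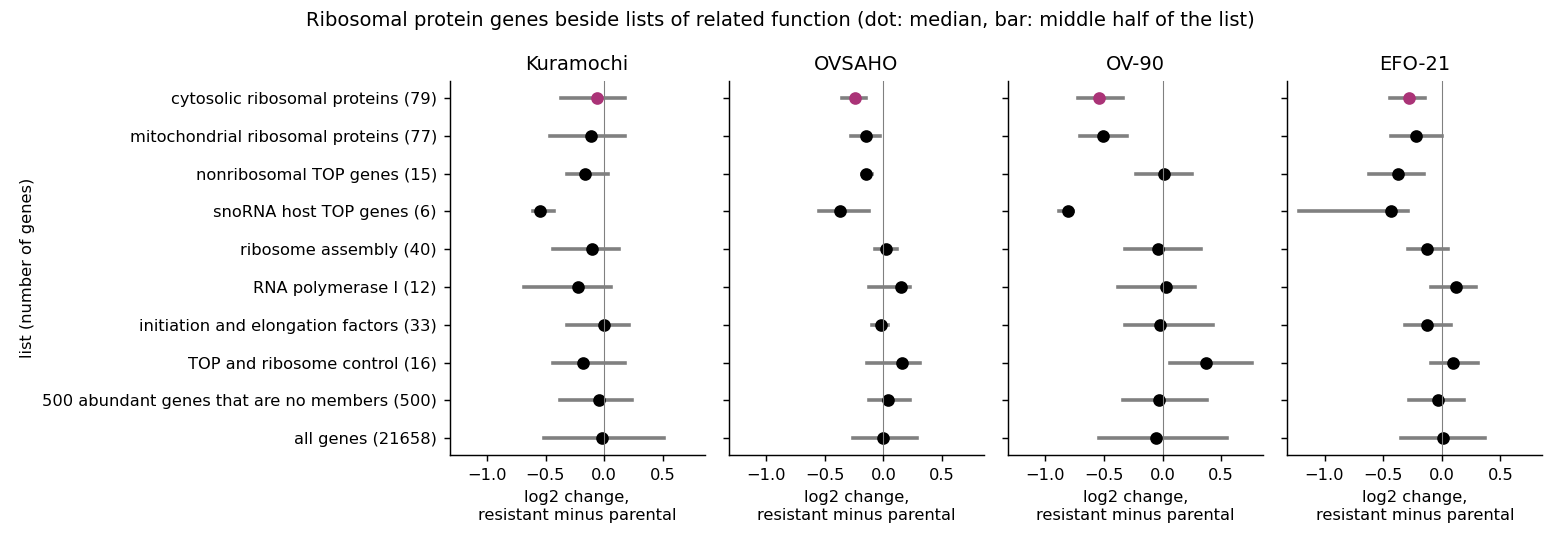
Median (dot) and interquartile range (bar) of the log2 change, resistant minus parental, of the ribosomal protein genes (purple) and of 9 other sets of genes (black), 1 panel per line, with the number of genes in brackets. The ribosomal protein median is -0.54 in OV-90, beside -0.51 for the mitochondrial ribosomal proteins and -0.03 for the 500 abundant genes.

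Within the family, the change was described against other properties. Members with a TOP-like tract at a listed start (46) and those without (17) had medians of -0.05 and 0.07 in Kuramochi, -0.24 and -0.22 in OVSAHO, -0.57 and -0.51 in OV-90 and -0.31 and -0.21 in EFO-21. The change and the mean log2 value over all libraries had a Pearson r of 0.53 in OVSAHO and 0.59 in OV-90, and of 0.12 in Kuramochi and 0.23 in EFO-21, over 79 genes that share their libraries. In OVSAHO and OV-90, then, members listed at lower values had the larger falls, and RPS28, RPS9 and RPL21 are among the members listed lowest. Levels are not given per length, so their order between genes is not an order of transcript numbers.

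Ribosomal protein genes have many near-identical processed pseudogenes, and how reads that match several copies were assigned is not given in the sources used here, so the values of single members are uncertain to that extent. The table holds 521 rows of such pseudogenes. In OV-90, 306 of them were lower and 3 higher (median -0.89), in Kuramochi 134 and 26 (-0.33), in OVSAHO 50 and 6 (-0.21) and in EFO-21 143 and 42 (-0.16). In this order, 58.7%, 25.7%, 9.6% and 27.4% were lower, against 17.9%, 23.3%, 16.2% and 23.4% of all genes. Higher were 0.576%, 4.99%, 1.15% and 8.06%, against 18.1%, 23.6%, 17.1% and 25% of all genes. The number of exon features behind a member ranged from 7 to 75 with a median of 19, and its Pearson r with the change lay between -0.28 and -0.07 in the 4 lines.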

How the data were processed

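The authors made stranded mRNA libraries from parental and prexasertib-resistant cells and sequenced them. Per the labels and methods, reads were aligned to GRCh37 (hg19), exons with few reads were left out, and a robust linear model or a mean over exons gave 1 value per gene. These values were deposited on a log2 scale after quantile normalization by the authors. No counts were used here, and depth is unknown. No column belonged to other samples (0). Columns name line and state but no replicate, and the labels call the libraries biological replicates without saying whether cultures were separate, so p-values measure the spread between these libraries.

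Symbols came from a RefSeq gene table (GRCh38.p14) for 20745 of 21658 genes (95.8%), positions from GENCODE lifted to GRCh37. The members and gene lists were chosen with earlier results of these data known. Each line was fitted alone with limma 3.58.1 in R 4.3.3 (lmFit, eBayes with trend, two-sided, Benjamini-Hochberg over all genes, adjusted p under 0.05), with no pseudocount or filter. Differences between lines and between parental lines were F tests in 1 fit of 8 group means, and the average used line as a block. The code was tested on simulated data.

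Named members are the 3 largest called rises and falls per line without overlap of the groups, the 10 largest mean falls called in at least 3 lines, and a list of stalk, MDM2-binding, fusion and paralogue genes. From each list, genes with the largest called change are named. Others were picked after values were seen. A few genes entered every fit and count but are not reported here by name. Alternatives were fold thresholds, a joint fit, no trend, a filter at the 25th percentile, recentring on 500 abundant genes, robust linear model genes alone, added related genes and leaving out each library. The comparison with up to 20 neighbouring genes was added after seeing the data.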

Additional observations from a re-analysis of the deposited data

Results flagged for a closer look

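The change from parental to resistant cells differed between the 4 lines for 56 of the 79 members by the F test of the interaction in limma (8 group means, adjusted over all genes), a share below the 75.1% of all genes. No group had the 4 libraries that a test for a single outlying library needs.

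Of the 39 genes named by rule, 28 passed this test, most of which are given here. Among the X-chromosome members the adjusted p was 6.93e-09 for RPS4X, 9.6e-09 for RPL36A, 3.78e-08 for RPL10 and 1.08e-05 for RPL39. Among the leading falls it was 4.61e-06 for RPS26, 6.12e-06 for RPS28, 3.09e-05 for RPL34, 8.74e-05 for RPL28, 8.94e-05 for RPL41, 0.00813 for RPS25, 0.00926 for RPL21 and 0.0356 for RPS12. For the paralogues it was 4.69e-05 for RPS27L, 0.00614 for RPS27, 5.34e-05 for RPL7L1, 7.89e-05 for RPL36AL, 9.34e-05 for RPL39L, 0.00155 for RPL26, 0.00341 for RPL26L1, 0.00872 for RPL22L1 and 0.0337 for RPL3. For the others it was 0.000144 for RPL12, 0.000751 for RPS2, 0.00454 for RPL5, 0.00699 for RPS6 and 0.016 for RPLP1.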

How the results depend on the processing

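Of 111 calls of named genes in a line, 54 passed in every alternative fit, leaving out each library included, and 0 changed sign. A change of at least 1.5-fold was reached by 50 of the 111, and of at least 2-fold by 10. The number of members called was 30 in Kuramochi, 55 in OVSAHO, 50 in OV-90 and 56 in EFO-21. Requiring 1.5-fold left 18, 6, 33 and 10, and the share of all genes at that threshold was not computed. Requiring 2-fold left 1, 1, 5 and 3, all lower. Of all genes, 10.6%, 3.83%, 6.56% and 7.15% were called lower at 2-fold. The joint fit of all libraries gave 29 in OVSAHO (26.2% of all genes), and the cause was not tested. Leaving out 1 library at a time gave 23 to 46 in Kuramochi (46 without parental library 4), 36 to 51 in OVSAHO (36 without resistant library 20), 1 to 72 in OV-90 (1 without resistant library 13, 14 or 15, the cause was not tested) and 45 to 58 in EFO-21. The median change in Kuramochi ran from -0.18 to 0.04 in these fits and turned to 0.04 without parental library 6. In OVSAHO the median was -0.24, and -0.29 both after recentring and relative to the neighbouring genes. No paired analysis was possible because the columns of the table carry no replicate numbers. Unknown depth and 2 or 3 libraries per group limit the precision of small changes.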
